A study of Mus musculus with 7 samples.

Results

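The genes of the translation initiation factors were followed in mouse cerebral cortex, from late embryo to adult. The members are the gene rows whose symbol starts with Eif and a digit, leaving out the pseudogene rows Eif4a-ps4 and Eif5al3-ps and the Y-linked Eif2s3y. This gave 57 of the 36666 rows of the gene table. Of these, 5 rows, Eif2c1 to Eif2c5, carry an older symbol series that was once counted with the factors, and Eif2c1 to Eif2c4 are the Argonaute genes. RNA was measured by mRNA sequencing of C57BL/6 mice, in 4 samples of cortex at embryonic day 17 and 3 samples of cortex from young adults. No genotype or treatment is named in the labels, and the labels give no adult age beyond that. They also do not say how many animals stand behind a sample, and p-values cover only the variation among these 7 samples, which may be technical.

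Initiation assembles a ribosome at a start codon. The ternary complex of eIF2, GTP and initiator methionyl-tRNA loads onto the small ribosomal subunit together with eIF1, eIF1A, eIF3 and eIF5. The cap-binding complex of eIF4E, the scaffold eIF4G and the helicase eIF4A recruits this assembly to the mRNA, and eIF5B then joins the large subunit. Supply is set at both entry points. The exchange factor eIF2B recharges eIF2 and is blocked when 1 of the eIF2 kinases phosphorylates eIF2, the step that opens the integrated stress response. The eIF4E-binding proteins compete with eIF4G for eIF4E until the kinase mTOR phosphorylates them. In neurons these switches act on local translation in dendrites and on long-lasting synaptic change.

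Promoter windows of 300 bases, from 250 before to 50 after the start of the gene, were taken from RefSeq on build GRCm38.p6 and matched 45 of the 57 members. The E-box CACGTG, the site type of MYC, MAX and USF proteins, was in the windows of 10 of the 45 members (22.2%), against 8.09% of 27025 genes with such windows. It is shown because more members held it than any other of the 4 longer motifs searched. The ETS core CCGGAAGT was in 8 members (17.8%) against 4.31% of genes. The other motifs searched, on both strands, were the CRE core TGACGTCA, in 0 members against 2.03% of genes, TATAAA, in 6.67% of members against 15.7%, and CCAAT, in 35.6% against 41.1%. Each of the 10 E-boxes is printed 5′ to 3′ on the strand of its gene with 10 bases on either side, with the motif in capitals.
Eif1b: tgcggacggtCACGTGgcggcggcgc
Eif3a: gcgagggaatCACGTGgttccttcct
Eif3f: agatatgattCACGTGgtataaattt
Eif3k: ggaaggaaatCACGTGgtagacaaaa
Eif4a1: atcgcctccgCACGTGtaaaggtgct
Eif4e: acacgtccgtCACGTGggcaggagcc
Eif4g1: ctgcgccggtCACGTGgggcgctggc
Eif4h: gccgccgcacCACGTGggccgcagag
Eif5a: ggggcggggtCACGTGtgtgcgtcat
Eif5a2: gggcgagcttCACGTGacggggcggg
The GRCm38.p6 positions are Eif1b chr9:120492572-120492597 on the plus strand, Eif3a chr19:60790656-60790681 on the minus strand, Eif3f chr7:108934337-108934362 on the plus strand, Eif3k chr7:28981917-28981942 on the minus strand and Eif4a1 chr11:69672597-69672622 on the minus strand. The others are Eif4e chr3:138527194-138527219 on the plus strand, Eif4g1 chr16:20672732-20672757 on the plus strand, Eif4h chr5:134639490-134639515 on the minus strand, Eif5a chr11:69921445-69921470 on the minus strand and Eif5a2 chr3:28781150-28781175 on the plus strand. Eif4e, Eif4g1, Eif5a and Eif5a2 each had 2 separate E-boxes, of which 1 is printed. Among the 10 genes, 7 were lower in adult cortex, 2 were higher (Eif4h and Eif5a2) and Eif5a was not called, while among all 45 the counts were 29 lower, 5 higher, 10 not called and 1 not tested. A match describes the letters of the window and is not a measured binding site, and base composition was not matched in the comparison with all genes.

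The gene values deposited by the authors are variance-stabilized read counts on a log2-like scale, on which a step of 1 approaches 2-fold where a gene has many reads, and hides more than 2-fold where it has few. The read counts behind them could be recovered, and levels are given below as reads per 1000000 reads in genes (CPM), as mean ± SD over 4 embryonic and 3 adult samples. Differences are adult minus embryonic on the deposited scale, tested with limma, and a gene is called where the adjusted p over all 22828 genes tested is under 0.05. The samples held 18444271 to 23606525 reads in genes. Among genes above 10 CPM, log2 CPM differences lay at a median of -0.087 from those on the deposited scale, and with samples centred on their medians all differences move by -0.18.

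Most initiation factor genes were lower in adult cortex. Of the 57 members, 55 were tested, of which 35 fell and 7 rose, and 13 were not called. Over all genes tested, 33.9% were called lower and 35.8% higher, 69.7% in all. The median difference of the 55 members was -0.35, against 0.026 over all genes tested. Eif4e1b, an oocyte form of the cap-binding protein, and Eif2c5 had 0 reads in all 7 samples, which allows up to 3 reads in each. Without the Argonaute rows, 33 of 51 fell and 7 rose. Among all genes with a mean value above the median of all rows 39.5% were called lower and 39.8% higher. On the deposited scale the embryonic and adult groups did not overlap for 36 members that were lower in every adult sample and 8 that were higher, against 33.2% and 35.7% of all genes.

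Summed over all 57 members, the Argonaute rows included, levels were 8140.4, 8070.0, 7962 and 8182 CPM in the embryonic samples. In the adult samples they were 5333, 5179.9 and 5207 CPM. All 3 adult samples lay below all 4 embryonic ones, with means of 8089 ± 95.9 and 5240.1 ± 81.9 CPM, a 1.54-fold lower sum in the adult. This corresponds to 0.809% of reads in genes at embryonic day 17 and 0.524% in the adult. Without the Argonaute rows the sum went from 7618 ± 75.1 to 5002 ± 81.2 CPM, 1.52-fold lower. A large part of either sum was Eif4g2, which alone went from 1551 ± 142 to 563 ± 51.1 CPM. All 35 genes that fell stayed called lower with samples centred on their medians. Of the 7 that rose, Eif5a2, Eif4h, Eif4e3 and Eif2ak2 kept the call under that centring, and Eif1, Eif1ax and Eif4ebp1 lost it.

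**Figure D1:**
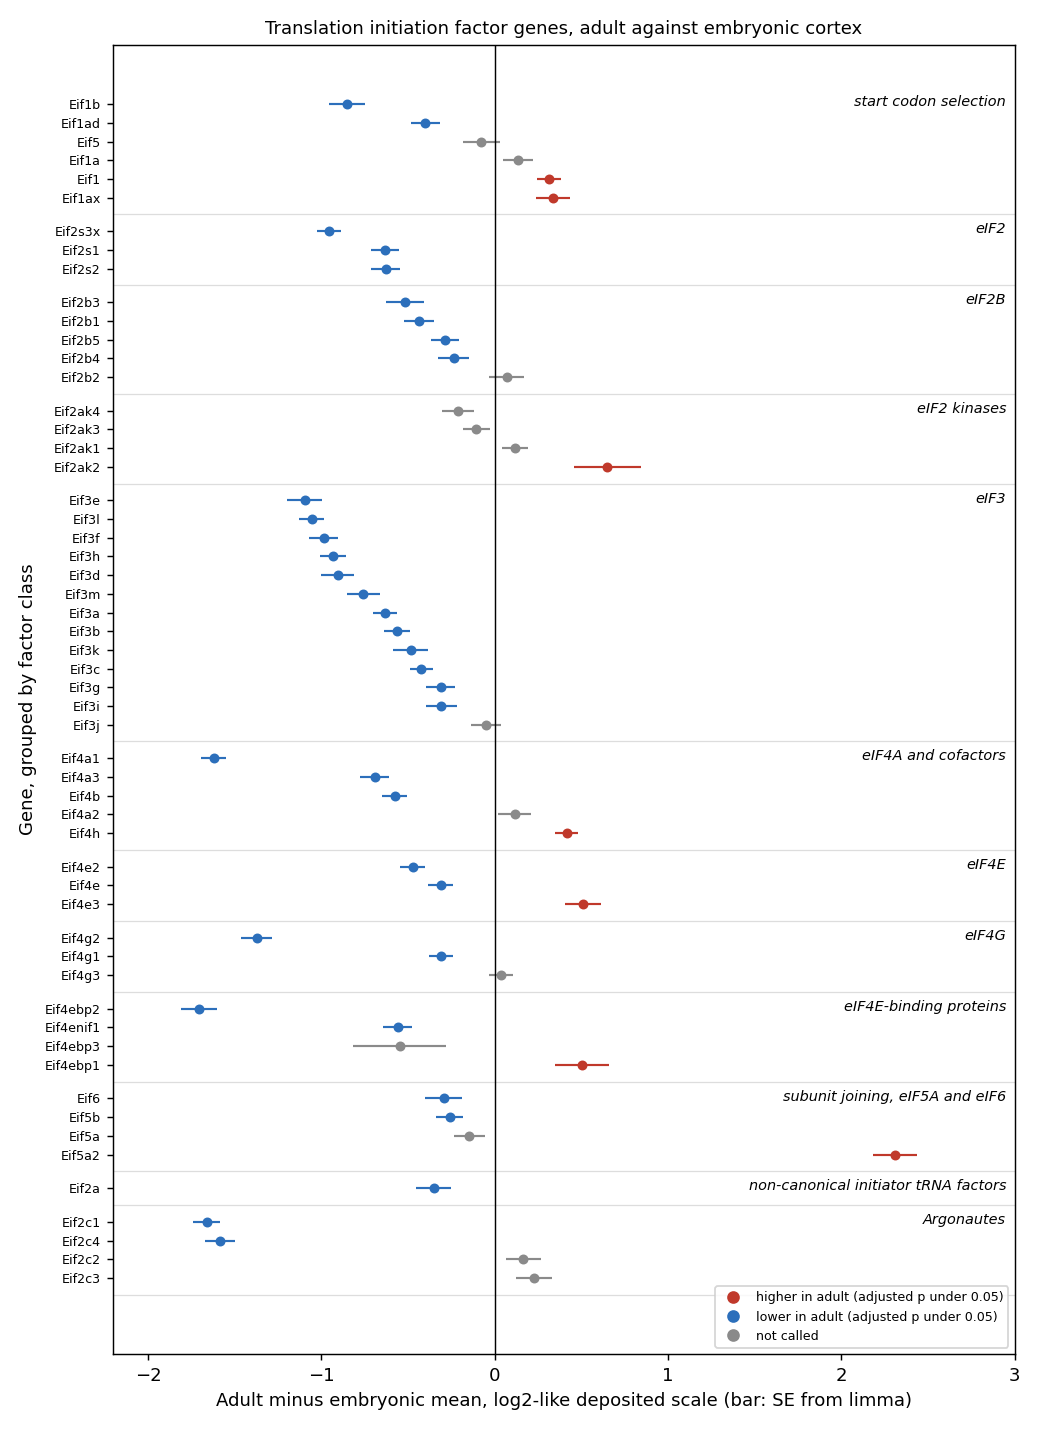
Adult minus embryonic difference of each of the 55 tested members on the deposited log2-like scale, with its standard error, grouped by factor class. Blue points were called lower in adult, red higher, and grey were not called. Eif5a2 stands farthest to the right at 2.31, and Eif4ebp2, Eif2c1, Eif4a1 and Eif2c4 lie below -1.5.

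The adult tissue also differed from the embryonic tissue in its cell type markers. The counts below stand beside 35.8% called higher and 33.9% called lower over all genes tested. Those of the erythroid, endothelial, general neuron and projection neuron markers were not uniform, and no result is read from them. All 5 of 5 astrocyte markers rose, and their summed level was between 161 and 167 CPM in the embryonic samples and between 3851 and 4703 CPM in the adult ones. All 5 of 5 oligodendrocyte markers rose, with sums between 48.2 and 51.2 CPM in the embryo and between 3700.1 and 6608 CPM in the adult. Of 6 progenitor markers 5 fell, with sums between 448 and 630.3 CPM in the embryo and between 61.1 and 93.5 CPM in the adult. Microglia, meninges, choroid plexus and striatum markers rose 5 of 5 each, and the summed levels were at most 55.4 CPM in any embryonic sample and at least 63.6 CPM in any adult one. Of 4 erythroid markers 2 fell, with sums between 535 and 805 CPM in the embryo and between 196 and 499.97 CPM in the adult, and of 5 endothelial markers 3 rose. The 3 general neuron markers found had 2 higher and 1 lower. The choroid plexus markers reached 587 to 722 CPM in the adult samples, chiefly Ttr, against 0.867 to 1.36 CPM in the embryonic ones. The 6 projection neuron markers of cortex were present in both groups, 2 higher and 4 lower in the adult, at a summed 1733 to 1831 CPM in the embryo and 4792 to 5432 CPM in the adult. In such bulk samples a smaller share of cells of a type and less RNA per cell cannot be told apart, and the part of the cell types in the results below was not tested.

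eIF2 itself fell in all its subunits, where 33.9% of all genes tested were called lower. Eif2s3x, which encodes the X-linked gamma subunit that binds GTP and the initiator tRNA, was at 248, 244, 247 and 249.4 CPM in the embryonic samples and 125, 111 and 123 CPM in the adult samples. The groups were wide apart and each was tight. The difference was -0.96 (SE 0.069, adjusted p = 2.06e-08), a 2.06-fold lower level. Eif2s1, the alpha subunit that the kinases phosphorylate, was at 40.7 ± 2.67 CPM in the embryonic and 24.4 ± 0.989 CPM in the adult samples, and Eif2s2, the beta subunit, at 62.6 ± 3.34 CPM in the embryonic and 37.9 ± 3.42 CPM in the adult samples. Their differences were -0.63 and -0.63, both smaller in size than that of the gamma subunit, a comparison that was not tested. The 3 subunits together went from 350.4 ± 7.97 to 182 ± 10.3 CPM. Eif2a, which despite its symbol is no subunit of eIF2 and can deliver initiator tRNA by another route, was at 42.4, 39.8, 38.7 and 45.4 CPM in the embryo and 36.6, 27.4 and 28.2 CPM in the adult. All adult values were below all embryonic ones, with a difference of -0.35 (SE 0.10, adjusted p = 0.00761), and the call was lost when no filter on low values was applied (adjusted p = 0.0524).

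eIF2B, the exchange factor, showed smaller changes, with 4 of its 5 subunits lower, against 33.9% of all genes tested. Eif2b3, a catalytic-arm subunit, had the largest fall, from 17.02, 17.4, 21.3 and 19.2 CPM in the embryonic samples to 11.9, 10.9 and 13.5 CPM in the adult ones. No adult sample reached the lowest embryonic one, and the difference was -0.52 (SE 0.11, adjusted p = 7.34e-04). Eif2b5, the catalytic epsilon subunit, had 63.7, 65.0, 71.0 and 58.7 CPM in the embryo and 48.6, 50.3 and 50.01 CPM in the adult, again without overlap, with a difference of -0.29 (SE 0.083, adjusted p = 0.00717). Eif2b1, of the regulatory part, changed by -0.44. Eif2b4 changed by -0.24 (SE 0.090, adjusted p = 0.0315), and this call was lost without adult replicate 1 (adjusted p = 0.101), adult replicate 2 (0.0509) or embryonic replicate 1 (0.0629), 2 (0.085) or 3 (0.072), without the filter on low values (0.0608) and without a mean-variance trend (0.0613). Eif2b2, of the regulatory part as well, was at 33.4 ± 3.47 CPM in the embryonic and 32.9 ± 1.89 CPM in the adult samples and was not called. The summed level of the 5 subunits was 179.5 ± 11.8 CPM in the embryo and 142 ± 4.45 CPM in the adult.

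Of the 4 eIF2 kinases, 1 rose and none was called lower, against 35.8% called higher and 33.9% called lower over all genes tested. No result about the class is read from these counts. Eif2ak2, the double-stranded RNA sensor PKR, was a low gene, with 3.96, 4.25, 2.12 and 3.97 CPM in the embryonic samples and 5.37, 6.02 and 4.88 CPM in the adult samples. Embryonic replicate 3 was the lowest, and every adult sample was above every embryonic one. The difference was 0.65 (SE 0.19, adjusted p = 0.00834), on 45 to 142 reads per sample, and was not called when no filter on low values was applied (adjusted p = 0.0826). Eif2ak1, the haem-regulated kinase HRI, was at 60.4, 58.6, 65.3 and 62.3 CPM in the embryo and 63.8, 59.6 and 65.9 CPM in the adult, with mixed values. Eif2ak3, the endoplasmic reticulum kinase PERK, was at 36.6, 37.8, 35.2 and 38.8 CPM and then 33.4, 32.3 and 31.5 CPM, with the adult samples just below the embryonic ones. Eif2ak4, the amino acid sensor GCN2, was at 33.9, 34.5, 28.9 and 36.5 CPM and then 25.4, 27.1 and 28.5 CPM, apart in CPM by a narrow gap but overlapping on the deposited scale. On the deposited scale the differences were 0.12, -0.11 and -0.21, none of them called. Eif2ak3 and Eif2ak4 were called lower with samples centred on their medians (adjusted p = 0.00426 and 0.00167) and by voom on the recovered reads (0.0431 and 0.0117), and Eif2ak4 also without embryonic replicate 3 (0.012). Whether the kinases as a class differ from eIF2 was not tested.

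The factors that scan for the start codon moved in both directions. Eif1b, a close relative of the start codon gatekeeper eIF1, was at 134, 144, 165 and 143 CPM in the embryonic samples and 86.0, 79.4 and 64.4 CPM in the adult samples. The adult level was 1.91-fold lower with no overlap, and the difference was -0.85 (SE 0.10, adjusted p = 4.82e-06). Eif1 went the other way, from 138, 139.6, 144 and 139 CPM to 159.6, 161 and 172 CPM, again with all adult samples on 1 side. Its difference of 0.31 (SE 0.069, adjusted p = 0.00104) was no longer called with samples centred on their medians (adjusted p = 0.112). Eif1ax, the X-linked eIF1A, was at 124, 118, 115 and 137 CPM in the embryo and 174, 137 and 133 CPM in the adult. In CPM the highest embryonic sample lay within the adult range, and only on the deposited scale were the groups apart. Its difference was 0.34 (SE 0.096, adjusted p = 0.00656) and was lost with centring (adjusted p = 0.169) and without the filter on low values (0.0573). Adult replicate 1 was the highest, and without it the difference was 0.22 (adjusted p = 0.0421). Eif1ad, an eIF1A domain protein, fell, at a difference of -0.40. Eif1a, the second eIF1A gene, and Eif5, which triggers GTP hydrolysis on eIF2, were not called, at differences of 0.13 and -0.077, and Eif5 was called lower under centring (adjusted p = 0.0443).

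For eIF3, the large scaffold on the small ribosomal subunit, 12 of 13 subunit genes fell, against 33.9% of all genes tested. The remaining one, Eif3j, was not called. The median difference of the 13 was -0.63. Summed, the subunits went from 1773 ± 56.9 CPM to 1056 ± 36.0 CPM, a 1.68-fold lower level. Eif3e had the largest fall, with 53.5, 46.6, 51.0 and 55.1 CPM in the embryonic samples and 25.5, 22.4 and 19.2 CPM in the adult ones. The highest adult sample was far below the lowest embryonic one, and the difference was -1.10 (SE 0.10, adjusted p = 2.63e-07). Eif3h, the subunit with the highest level per kilobase of merged exon, was at 170.5, 177, 188 and 167 CPM and then 84.6, 83.9 and 89.8 CPM. It too was apart in every sample, at a difference of -0.93 (SE 0.074, adjusted p = 5.50e-08). Per kilobase, its level was 135 ± 7.25 CPM in the embryo and 66.5 ± 2.50 CPM in the adult, against 8.79 ± 0.920 and 7.96 ± 0.110 CPM per kilobase for Eif3j.

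The size of the fall varied among eIF3 subunits. The subunits a, b, c, g and i form the core that is conserved in budding yeast, and they had differences of -0.63, -0.56, -0.42, -0.31 and -0.31. The subunits d, e, f, h, k, l and m are outside that core, and they had differences of -0.90, -1.10, -0.99, -0.93, -0.48, -1.06 and -0.76. The medians were -0.42 for the core and -0.93 for the others. In summed CPM the core went from 949 ± 33.1 to 623 ± 19.7, and the others from 777 ± 44.0 to 389.9 ± 20.01. This grouping was chosen after the values were seen, and the difference between the groupings was not tested. Eif3j, a loosely attached subunit, was at 47.6 ± 4.98 CPM in the embryonic and 43.1 ± 0.594 CPM in the adult samples. It was called lower only with samples centred on their medians (adjusted p = 0.0282), among the settings tried.

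**Figure D2:**
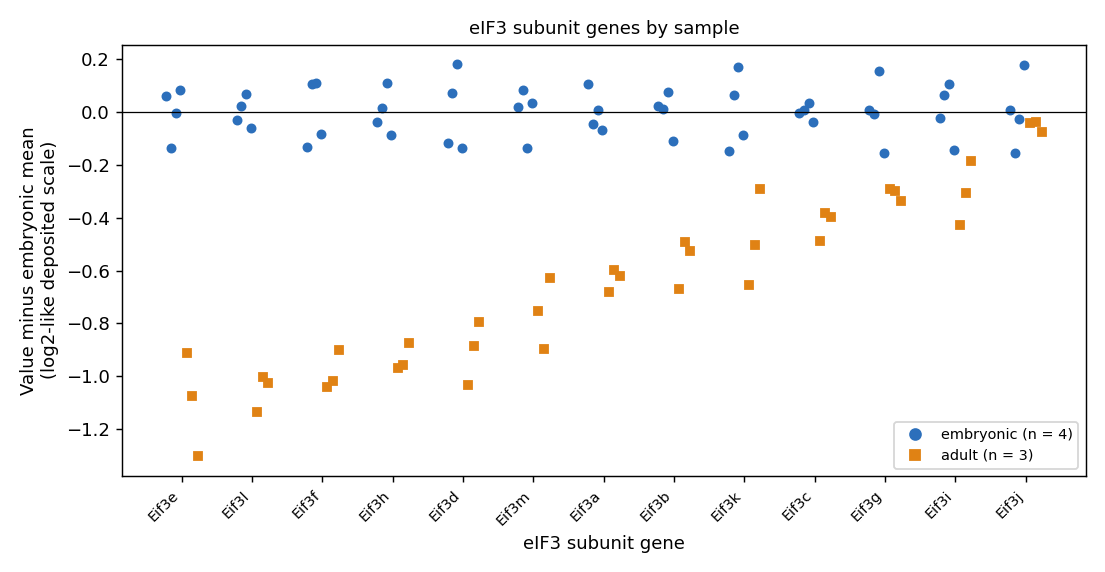
Value of each eIF3 subunit gene in each sample, minus its embryonic mean, on the deposited log2-like scale, with subunits ordered by the size of the difference. Embryonic samples (blue circles, n = 4) scatter around 0, and the adult samples (orange squares, n = 3) lie below them for 12 of the 13 subunits, from Eif3e at -1.10 to Eif3i at -0.31, while Eif3j overlaps.

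Among the cap-binding factors, the scaffold Eif4g2 and the helicase Eif4a1 showed the largest falls. Eif4g2, also called DAP5, lacks the eIF4E-binding site and serves initiation that does not depend on eIF4E. It was at 1607, 1559, 1352 and 1683 CPM in the embryonic samples and 617, 559 and 515 CPM in the adult samples. All adult values were far below the embryonic ones, at a difference of -1.37 (SE 0.088, adjusted p = 6.21e-09) and a 2.75-fold lower level. Eif4g1, the main scaffold, fell less, from 421 ± 11.6 to 321 ± 14.1 CPM, at a difference of -0.31. Eif4g3, the third scaffold, was at 311 ± 9.97 CPM in the embryonic and 301 ± 12.01 CPM in the adult samples and was not called. The 3 scaffold genes together went from 2283 ± 148 to 1185 ± 61.0 CPM.

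Eif4a1, the helicase that unwinds the leader of the mRNA, was at 437, 447, 484 and 437 CPM in the embryonic samples and 130.1, 138 and 144 CPM in the adult ones. The 3.28-fold lower adult level left no overlap, and the difference was -1.62 (SE 0.073, adjusted p = 1.66e-10). Eif4a2, its paralog, was at 359, 323, 372 and 438 CPM in the embryo and 392.3, 347 and 398 CPM in the adult, with fully mixed values, and was not called at a difference of 0.11 (SE 0.095, adjusted p = 0.295). The fit with the replicate number as a block called it higher (adjusted p = 0.0263). That fit leaves out embryonic replicate 4, the highest embryonic sample for this gene. With samples centred on their medians the sign of the Eif4a2 difference turned. The excluded pseudogene row Eif4a-ps4 held 686 ± 34.1 CPM in the embryo and 194 ± 14.01 CPM in the adult. Pseudogene copies can share reads with the gene they derive from, so the Eif4a1 level is uncertain, and the rows of Eif4a1 and Eif4a-ps4 summed to 1137 ± 56.0 and 332 ± 21.1 CPM, 3.43-fold lower in the adult.

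The promoters of this pair are shown because Eif4a1 fell while Eif4a2 was not called. The stretch printed for Eif4a1 is chr11:69672424-69672673 on the minus strand, covering the 250 bases before the start, and that for Eif4a2 is chr16:23107218-23107443 on the plus strand, 226 bases that stop 25 bases before the start, ahead of annotated exons (RefSeq, GRCm38.p6). CACGTG and CCAAT are in capitals.
Eif4a1: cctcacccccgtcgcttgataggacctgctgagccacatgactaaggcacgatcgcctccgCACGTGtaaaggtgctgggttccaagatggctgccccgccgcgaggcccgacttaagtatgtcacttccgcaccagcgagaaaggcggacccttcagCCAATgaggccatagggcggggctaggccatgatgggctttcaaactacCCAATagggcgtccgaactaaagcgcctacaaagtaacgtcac
Eif4a2: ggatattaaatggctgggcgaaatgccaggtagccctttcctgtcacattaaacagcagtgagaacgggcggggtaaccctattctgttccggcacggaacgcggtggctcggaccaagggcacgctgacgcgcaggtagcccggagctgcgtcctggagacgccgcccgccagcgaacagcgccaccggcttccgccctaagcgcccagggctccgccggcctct
The Eif4a1 stretch holds 1 E-box and 2 CCAAT boxes with 58.8% G and C, and the Eif4a2 stretch holds none of the 5 motifs searched, with 65.0% G and C. The absence of these letters from the window says nothing about the factors that bind there.

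Other partners of the helicase were split. Eif4h, which stimulates eIF4A, rose from 238, 246, 244 and 238 CPM in the embryonic samples to 292, 318 and 301 CPM in the adult ones, and stayed called under every setting tried. Its groups were apart, at a difference of 0.41 (SE 0.069, adjusted p = 9.29e-05) and a 1.26-fold higher level. Eif4b, the related cofactor, fell from 316 ± 13.8 to 199.6 ± 11.6 CPM, at a difference of -0.58. Eif4a3, which belongs to the exon junction complex and not to cap binding, fell as well, at a difference of -0.69.

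The cap-binding proteins changed by small amounts. Eif4e was at 86.1, 84.2, 87.9 and 88.1 CPM in the embryonic samples and 64.4, 63.7 and 68.7 CPM in the adult ones, with no overlap and a difference of -0.31 (SE 0.070, adjusted p = 0.00127). Eif4e2, a cap-binding homologue that represses bound mRNAs, was at 88.0, 89.2, 91.8 and 87.4 CPM and then 57.6, 62.1 and 61.2 CPM, at a difference of -0.47 (SE 0.072, adjusted p = 4.46e-05). The adult samples of both genes were all below the embryonic ones. Eif4e3, the detected family member with the lowest level per kilobase, rose from 10.8, 10.6, 9.65 and 11.2 CPM to 15.9, 14.4 and 13.2 CPM, also with groups apart, at a difference of 0.51 (SE 0.10, adjusted p = 4.86e-04).

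The largest fall of any member was in 1 of the 4 genes for eIF4E-binding proteins, Eif4ebp2. Eif4ebp2, the form known as the brain's main 4E-BP, was at 77.9, 83.9, 63.1 and 66.5 CPM in the embryonic samples and 19.2, 21.2 and 20.8 CPM in the adult samples. The adult level was 3.57-fold lower with no overlap, and the difference was -1.70 (SE 0.10, adjusted p = 3.39e-09). Eif4ebp1 was at 1.63, 1.77, 1.83 and 1.62 CPM and then 2.49, 2.16 and 2.73 CPM, on 30 to 62 reads per sample. All adult samples were above the embryonic ones at a difference of 0.50 (SE 0.16, adjusted p = 0.0104), and the call was lost with samples centred on their medians (adjusted p = 0.0843). Eif4ebp3 rested on 5 to 14 reads per sample, at 0.542, 0.487, 0.659 and 0.508 CPM in the embryo and 0.218, 0.254 and 0.440 CPM in the adult. It was lower in every adult sample but was not called, at -0.55 (SE 0.27, adjusted p = 0.0840), and it was called lower without adult replicate 3 (adjusted p = 0.0362), with centring (0.027) and without a mean-variance trend (0.026). Eif4enif1, the 4E-transporter that carries eIF4E into the nucleus and to processing bodies, was at 72.9, 72.5, 72.1 and 79.3 CPM and then 48.1, 42.1 and 51.7 CPM. Its groups were apart and it fell, at a difference of -0.56 (SE 0.083, adjusted p = 3.37e-05). The 4 genes together went from 149 ± 8.86 to 70.5 ± 4.97 CPM, and the cap-binding class from 186 ± 2.34 to 140.4 ± 2.58 CPM.

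Eif5a2 had the largest rise of all members. It encodes the second form of eIF5A, the hypusine-bearing factor that helps the ribosome through difficult peptide bonds. Its level was 14.8, 12.6, 10.4 and 15.1 CPM in the embryonic samples and 76.2, 57.6 and 60.2 CPM in the adult samples. Every adult sample was well above every embryonic one, the adult level was 4.89-fold higher, and the difference was 2.31 (SE 0.13, adjusted p = 1.46e-09). Eif5a, the common form, was at 222, 221, 233 and 188 CPM and then 179, 199.6 and 173 CPM, with overlap through embryonic replicate 4, and was not called. It was called lower without that sample (adjusted p = 0.0329) and with the replicate number as a block (0.0318), which leaves out the same sample. Eif5a was also called lower with centring (adjusted p = 0.00427) and by voom (0.0239). Eif6, which keeps the large subunit from joining early, was at 40.9, 47.2, 52.1 and 40.3 CPM and then 31.6, 37.9 and 33.8 CPM. In CPM the groups were close but apart, on the deposited scale they overlapped, and the difference of -0.29 (SE 0.11, adjusted p = 0.0244) was no longer called without adult replicate 1 (adjusted p = 0.105) or 3 (0.0646), or without embryonic replicate 2 (0.0665) or 3 (0.071). It was also lost without the filter on low values (adjusted p = 0.113) and without a mean-variance trend (0.075). Eif5b, the subunit-joining GTPase, fell, at a difference of -0.26.

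The 4 Argonaute genes listed under Eif2c symbols load small RNAs and are not initiation factors. Of them 2 fell, against 33.9% of all genes tested. Eif2c1, now Ago1, was at 300.2, 321, 264 and 284 CPM in the embryonic samples and 82.9, 88.2 and 87.8 CPM in the adult ones, 3.39-fold lower with no overlap, at -1.66 (SE 0.080, adjusted p = 3.12e-10). Eif2c4, now Ago4, fell by nearly as much, at -1.59. Eif2c2, now Ago2 and the slicing member, and Eif2c3 were not called, at 0.16 and 0.23. Eif2c3 was called higher without embryonic replicate 1 (adjusted p = 0.0463) and with the replicate number as a block (0.0166). The block fit leaves out embryonic replicate 4.

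Paralogs were compared within each sample, as the value of the second gene minus that of the first, which removes any scaling shared by both. In all 9 pairs the embryonic and adult differences did not overlap. Among single genes, groups did not overlap for 33.2% (lower in adult) and 35.7% (higher) of all genes tested. No such share was computed for other gene pairs, so the count is not read as particular to paralogs. The exact two-sided permutation test gave p = 0.0571 for each pair, before and after adjustment over the 9 pairs. This is the smallest p that 4 against 3 samples allow. Eif4a2 minus Eif4a1 was -0.28, -0.47, -0.38 and 0.0043 in the embryonic samples and 1.59, 1.32 and 1.46 in the adult samples. Eif4a1 was level with or above Eif4a2 in the embryo and below it in every adult sample, a change of 1.74. Per kilobase of merged exon, Eif4a2 was 31.4% ± 3.11 of the pair in the embryo and 60.4% ± 2.21 in the adult. With the Eif4a-ps4 row added to Eif4a1, Eif4a2 made up 24.7% of the CPM of the 3 rows in the embryo and 53.3% in the adult. These last shares are not divided by length and cannot be set against those per kilobase. Eif4a2 has the longer merged exons, at 3197 bases against 1774 for Eif4a1. Which form is the major one in the adult therefore stays uncertain once the pseudogene row is counted.

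Eif5a2 minus Eif5a was -3.83, -4.04, -4.39 and -3.57 in the embryonic samples and -1.22, -1.78 and -1.51 in the adult ones. The change of 2.46 was the largest of the 9 pairs, yet Eif5a2 stayed the minor form, at 2.85% ± 0.673 of the pair per kilobase in the embryo and 14.3% ± 2.39 in the adult. Eif4ebp2 minus Eif4ebp1 was 5.18, 5.18, 4.74 and 4.95 and then 2.70, 3.01 and 2.70, a change of -2.21. Eif4ebp2 remained the major form per kilobase, at 93.5% ± 0.960 and 74.1% ± 2.66 of the pair. Eif1b minus Eif1 changed by -1.16, with the per-kilobase share of Eif1b going from 57.1% ± 1.67 to 37.2% ± 4.42. By this per-kilobase measure the major form changed from Eif1b in the embryo to Eif1 in the adult. In CPM, without division by length, the pair was close in the embryo, at 147 ± 13.4 for Eif1b and 140 ± 2.93 for Eif1.

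Eif4h minus Eif4b changed by 0.99 and Eif4e3 minus Eif4e by 0.82. The shift was smaller for Eif4g3 minus Eif4g1 (0.34), Eif1ax minus Eif1a (0.20, and 0.12 without adult replicate 1) and Eif4e2 minus Eif4e (-0.16). The last had values of 0.032, 0.081, 0.061 and -0.011 in the embryo and -0.16, -0.035 and -0.17 in the adult, so that its groups came within a few hundredths of each other. The pairs with Eif4e share that gene and are not independent.

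**Figure D3:**
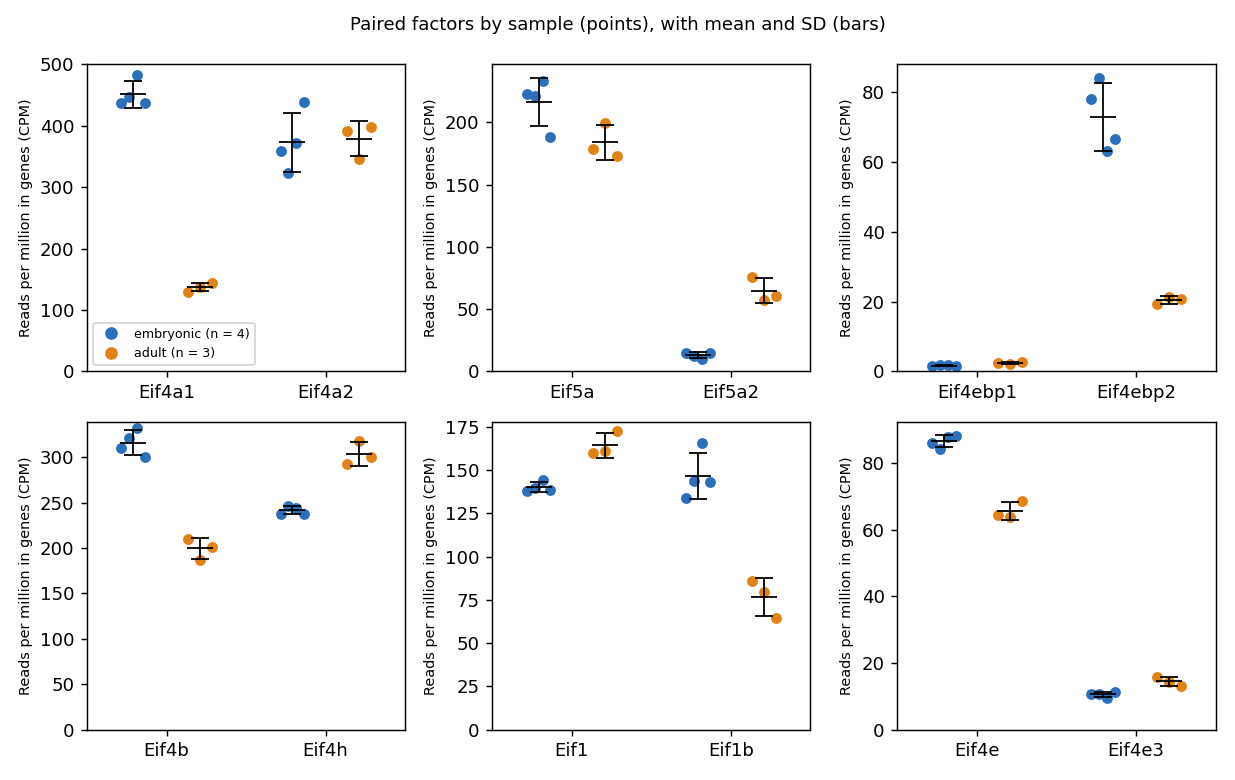
Reads per 1000000 reads in genes (CPM, linear axis from 0) for 6 pairs of related factors, with 1 point per sample (blue embryonic, n = 4, orange adult, n = 3) and bars for the mean and SD. Eif4a1 drops from about 451 to 138 CPM beside Eif4a2 at 373 and 379 CPM, Eif5a2 rises from 13.2 to 64.7 CPM, Eif4ebp2 drops from 72.8 to 20.4 CPM, and Eif1 and Eif1b part in opposite directions.

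The number of exons called in the factor genes moved with single samples. The exon table gives, for each exon, a score that rises as the exon's share of its gene's reads falls. Shares are given below as 100 divided by the whole number behind the score. Score differences of single exons are relative to the other exons of the gene, unless the score is said to be tested by itself. For 547 exons of 47 member genes, 17 exons in 11 genes were called by limma's diffSplice, which compares an exon with the rest of its gene. This is 3.11%, against 4.86% of all exons tested. Without adult replicate 3 the count was 45 (8.23%, against 7.89% of all exons), and it was 11 without embryonic replicate 2 or adult replicate 2 and 10 without embryonic replicate 3, so that no lower share than that of all exons can be read from the members. Of the 547 exons, 8 were called with a larger share and 9 with a smaller share in the adult. Over all exons tested, 2.68% were called with a larger and 2.17% with a smaller share. For 9 of the 17 the groups did not overlap, a share that was not computed over all exons. When scores were tested without reference to the other exons, 11 member exons were called, 5 of which were among the 17, while 1.98% of all exons were called by that test, 0.951% with a smaller and 1.03% with a larger share.

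Within Eif4a2, 3 exons near the 3′ end of the gene took a smaller share in the adult. The exon that starts at position 23112424 of chromosome 16 (mm9) held 14.3, 12.5, 12.5 and 12.5% of the gene's reads in the embryonic samples and 8.33, 7.14 and 6.67% in the adult samples. Every adult share was lower, at a score difference of 1.76 (SE 0.47, adjusted p = 0.0133), on about 1008 reads per embryonic and 646 per adult sample. This call was lost without adult replicate 2 (adjusted p = 0.0861) or 3 (0.0566) or embryonic replicate 2 (0.0521) or 3 (0.0545). The exons at 23111576 and 23113240 were minor ones, at means of 0.648% and 0.598% in the embryo and 0.220% and 0.111% in the adult. The first of them was not called without adult replicate 1 (adjusted p = 0.136) or 2 (0.0975) or when its score was tested by itself (0.0996), while the second stayed called in every setting tried.

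In Eif4a1, the exon at 69482146 of chromosome 11 (mm9) went from 2.44, 2.94, 2.70 and 3.33% in the embryonic samples to 0.909, 1.89 and 1.61% in the adult ones. The adult shares were all lower, at 2.61 (SE 0.40, adjusted p = 3.05e-06), but the score tested by itself was not called (adjusted p = 0.0955). The exon at 69485781 of the same gene went from 0.130% to 0.328% on about 12.2 and 10.3 reads per sample, and was not called without embryonic replicate 2 (adjusted p = 0.0596) or when its score was tested by itself (0.110). In Eif5a, a minor exon at 69734303 of chromosome 11 went from 0.219, 0.200, 0.362 and 0.368% to 1.02, 1.54 and 0.990%. Its adult shares were all higher, at -2.74 (SE 0.42, adjusted p = 4.18e-06), and it was called by both tests. In Eif1, the first listed exon, at 100181310 of chromosome 11, went from 7.58% to 10.5%. Relative to the gene's other exons its score changed by -2.10 (SE 0.35, adjusted p = 3.71e-04). Tested by itself the score changed by -1.05 and was not called (adjusted p = 0.166). In Eif1ad, the exon at 5369926 of chromosome 19 had a share of 50% in every embryonic and 33.3% in every adult sample, which are neighbouring steps (2 and 3) of a coarse scale, and the call was lost without adult replicate 1 (adjusted p = 0.0624) or 2 (0.0707).

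Genes around initiation were followed as lists, beside 33.9% called lower and 35.8% called higher over all genes tested. Of 9 elongation genes 7 fell and 1 rose. Eef1a1, the common elongation factor that brings aminoacyl-tRNA to the ribosome, was at 4095, 4156, 4344 and 4117 CPM in the embryonic samples and 1355, 1371 and 1400.1 CPM in the adult ones, at -1.52 (SE 0.070, adjusted p = 1.99e-10). Eef1a2, its neuronal and muscle form, went from 139.8, 138, 177 and 134 CPM to 1169, 1301 and 1337 CPM, at 3.19 (SE 0.10, adjusted p = 4.33e-12). Both were apart in every sample, in opposite directions. All 5 genes of the poly(A)-binding list fell, led by Pabpc1, the poly(A)-binding protein that contacts eIF4G, from 233 ± 8.39 to 100.2 ± 11.3 CPM, and Pabpc4, from 50.5 ± 2.50 to 24.5 ± 1.77 CPM. Of 7 termination and recycling genes 4 fell and 1 rose, Gspt2, a form of release factor eRF3, from 16.5 ± 0.991 to 29.9 ± 1.202 CPM. The called member of that list with the next largest difference was Mcts2, at -0.50.

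The regulatory lists held calls in both directions. Of 11 genes of the integrated stress response, 7 rose and 1 fell, and with samples centred on their medians 6 were called higher and 3 lower. The 1 that fell was Gcn1l1, from 196 ± 12.5 to 106 ± 8.49 CPM, at -0.80 (SE 0.082, adjusted p = 8.69e-07). Ppp1r15b was not called, and under centring it was called lower, at -0.31 (adjusted p = 0.00605). Impact, which binds GCN1 and inhibits GCN2 and is abundant in neurons, was at 39.0, 39.4, 37.3 and 43.5 CPM in the embryonic samples and 238, 241 and 231 CPM in the adult samples, at 2.63 (SE 0.074, adjusted p = 1.83e-12). Dnajc3, the co-chaperone p58IPK that inhibits eIF2 kinases, rose from 27.3 ± 1.84 to 67.6 ± 6.29 CPM. Some target genes of the response, named after their values were seen, rose as well and stayed called under centring. Asns, which makes asparagine, went from 27.3 ± 2.68 to 63.2 ± 6.95 CPM. Chac1, which degrades glutathione, went from 1.89 ± 0.495 to 4.69 ± 0.935 CPM, and Ddit3, the transcription factor CHOP, from 14.95 ± 1.39 to 28.7 ± 3.71 CPM. Others did not: Atf5 rose but lost its call under centring (adjusted p = 0.151), and Trib3 was not called, at 0.098 (adjusted p = 0.82). Atf4, the transcription factor of the response, was at 81.0 ± 3.12 CPM in the embryonic and 75.8 ± 6.27 CPM in the adult samples. It was not called, and under centring it was called lower, at -0.20 (adjusted p = 0.0379).

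Of 14 genes of mTOR and MNK signalling, 5 rose and 6 fell, and under centring 4 were called higher and 9 lower. Rhebl1, a Rheb-like GTPase, fell from 22.7 ± 1.59 to 5.53 ± 1.35 CPM, and Mknk2, a kinase of eIF4E, from 70.0 ± 4.20 to 42.1 ± 2.77 CPM. Of 11 repressors and helicases, 5 rose and 4 fell, and under centring 4 were called higher and 5 lower. Without centring, the calls of both lists lay near the shares of all genes tested, 35.8% higher and 33.9% lower. No result about these lists is read from the counts. Cpeb1, which binds cytoplasmic polyadenylation elements in dendritic mRNAs, rose from 1.52, 1.68, 2.02 and 1.85 CPM to 55.4, 40.5 and 53.6 CPM. Bzw2, an eIF5-mimic protein that competes for eIF2, fell from 235, 227, 248 and 228 CPM to 28.2, 26.2 and 24.5 CPM. Neither gene's groups overlapped, at 4.52 (SE 0.13, adjusted p = 2.46e-12) and -3.03 (SE 0.077, adjusted p = 7.09e-13).

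**Figure D4:**
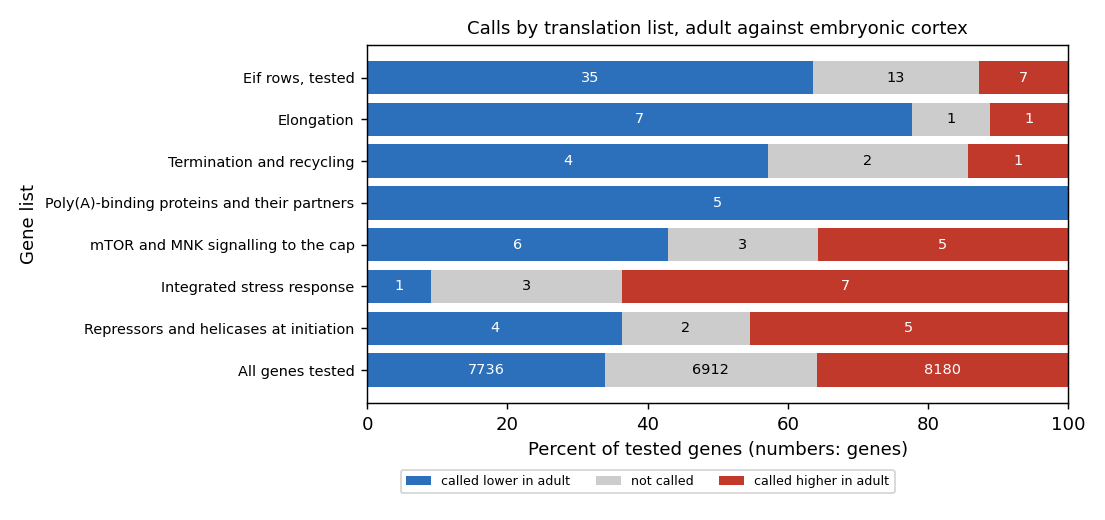
Percent of tested genes called lower (blue), not called (grey) and called higher (red) in adult cortex for the Eif rows, 6 lists of related translation genes and all 22828 genes tested, with gene numbers in the bars. The Eif rows hold 35 lower and 7 higher calls and the integrated stress response 1 lower and 7 higher.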

How the data were processed

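Trizol RNA went into Illumina mRNA libraries, per the labels' protocols. The submitters' processing notes list TopHat 1.0.13 and Bowtie 0.12.7.0, SAMtools 0.1.7a, HTSeq 0.5.3p3 and CASAVA 1.7.1, with the mm9 build, but not what each was used for. No source used here states whether counting used strand, and a gene cannot be told apart from an overlapping antisense gene. The deposited gene values are variance-stabilized read counts on a log2-like scale. The deposited exon values are a variance-stabilized score, named 1/ratio per the file headers. It steps through whole numbers that behave as the gene's reads divided by the exon's, and 1 over that number sums to a median of 1.18 to 1.21 over the exons of a gene.

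The values follow whole numbers, and in each sample over 99.99% of gene values lay within 0.1 of a whole number after 1 scale per sample was fitted. The recovered reads gave CPM and were tested by voom as an alternative. The main tests used the deposited values in limma 3.58.1 (R 4.3.3), with a mean-variance trend, Benjamini-Hochberg adjustment and a threshold of 0.05. Genes at the lowest value in more than 3 of the 7 samples were left out. Exons were tested with diffSplice on the scores. The scripts were tested on simulated data. Paralogs were compared by exact permutation tests over samples. Per-kilobase levels used merged exon lengths of GENCODE M21. No 2 samples of a group matched within sampling noise (chi-square over degrees of freedom 4.83 to 17.7).

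The members, classes and lists were chosen with earlier results of these data known. In each class, the called genes with the largest difference in each direction and with the highest level per kilobase, and all kinases and binding proteins, are given in every sample. Of each list the 2 called genes with the largest difference are named, and of the exons the 5 with the largest score difference in each direction among those called with groups apart. Eif4a2, Eif5a, Atf4, Atf5, Trib3, Gcn1l1 and Ppp1r15b were added for comparison, after their values were seen.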

Additional observations from a re-analysis of the deposited data

Results flagged for a closer look

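Of 72 results with 4 embryonic values each, 5 had 1 embryonic sample far from the other 3, and chance alone marks about 1 in 20 such groups. Eif2b2 was low in embryonic replicate 4, at -3.899 on the deposited scale against -3.595 to -3.547 in the others. Eif2ak2 was low in embryonic replicate 3, at -7.302 against -6.541 to -6.438. Eif4enif1 was high in embryonic replicate 4, at -2.438 against -2.549 to -2.539. The Eif4a2 exon at 23112424 had a low score, and so a high share, in embryonic replicate 1, at 5.083 against 5.4 to 5.448. These scores stand for neighbouring whole numbers on the coarse exon scale, so this flag says little about the sample. Eif4e3 minus Eif4e was low in embryonic replicate 3, at -3.089 against -2.9 to -2.891.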

How the results depend on the processing

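The number of members called lower ranged from 33 to 36 and the number called higher from 7 to 8 when 1 sample was left out. With samples centred on their medians 4 members were called higher and 41 lower, and the share of higher among all calls was 43.6%, against 51.4%. Without the filter on low values 5 members were called higher and 32 lower. Whether the replicate numbers pair the samples could not be told from the values. Same-numbered samples had correlations of 0.0088, 0.0567 and 0.0405, and other-numbered ones lay between -0.0475 and 0.0617. The fit with the replicate number as a block, which leaves out embryonic replicate 4, called 9 members higher and 36 lower. Genes that were not called changed sign in some settings, and the cause was not tested. With centring these were Eif1a (-0.049), Eif2ak1 (-0.065), Eif2b2 (-0.11), Eif2c2 (-0.017), Eif4a2 (-0.067) and Eif4g3 (-0.15). By voom they were Eif2b2 (-0.013) and Eif4g3 (-0.048). With the block, and equally without embryonic replicate 4, they were Eif2b2 (-0.013) and Eif3j (0.0075), and without adult replicate 2 Eif5 (0.035). With 1 sample left out these ranged from -0.013 to 0.10 for Eif2b2, -0.10 to 0.0075 for Eif3j and -0.17 to 0.035 for Eif5. Exon counts were less stable. Leaving out 1 sample gave 5 to 25 member exons with a larger share and 5 to 20 with a smaller share, and 1417 to 3619 and 1340 to 3180 of all exons. Testing scores by themselves, an alternative added after seeing the data, gave 1 member exon with a larger and 10 with a smaller share, and 889 exons of all genes with a larger and 822 with a smaller share, against 2313 and 1872. Counting without the Argonaute rows was also added after seeing the data. Paralog differences kept their direction with 1 sample left out and on log2 of reads plus 1. Genes with few reads, such as Eif4ebp3, limit what can be called.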
